A study of Mus musculus with 6 samples.

Results

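The semaphorins, Slits and netrins are guidance ligands, and the plexins, Robos and Unc5 proteins are receptors that read them. All genes whose symbol names a semaphorin of class 3 to 7, a plexin, *Slit1* to *Slit3*, *Robo1* to *Robo4*, *Ntn1* to *Ntn5* or *Unc5a* to *Unc5d* were taken from the RNA-Seq table of isolated lung endothelial cells (iLECs). This gave 44 of the 24972 genes in the table, 27 of them ligands and 17 receptors.

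The libraries came from P7 mouse lungs, 3 labelled as control and 3 as *Atp6ap2*iECKO. Both groups carried the floxed *Atp6ap2* allele (labelled fl/Y) and received tamoxifen, 100 μg on each of P1, P2 and P3. The *Atp6ap2*iECKO mice also carried *Cdh5*-CreERT2, a Cre recombinase that tamoxifen activates and that the promoter of the endothelial gene *Cdh5* drives, so that control mice had the drug but not the recombinase. CD31-positive cells were pulled from digested lung with antibody-coated beads, and the study calls the libraries biological replicates, without saying how many animals went into each. The labels name the C57BL/6 strain, whereas the study's methods describe a mixed background of CD1 and C57BL/6. Values are called normalized counts here, because the authors had scaled the libraries to one another, and libraries are given in the order of replicates 1, 2 and 3.

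In the nervous system these families steer growing axons, and many of the same pairs act in blood vessels. Class 3 semaphorins are secreted and mostly bind a neuropilin joined to a plexin, whereas classes 4 to 7 are held at the membrane and bind plexins directly. Slits bind Robo1 and Robo2, netrin-1 binds Dcc, neogenin and the Unc5 receptors, and Robo4, Unc5b and plexin D1 are receptors known for their expression in endothelium. ATP6AP2, the (pro)renin receptor, is an accessory subunit of the vacuolar proton pump.

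*Atp6ap2* (chrX:12587801-12617049, GRCm38) had 7490, 5815 and 5681 normalized counts in control and 4220, 2336 and 1982 in *Atp6ap2*iECKO iLECs (log2 fold change -1.22, SE 0.26, limma adjusted *P* = 0.0306). Its groups did not overlap, with *Atp6ap2*iECKO replicate 1 the nearest to the controls. It passed without that library, and without any other single library limma's adjusted *P* was between 0.0628 and 0.103. Endothelial markers were abundant and similar, with 0 of 20 past the threshold in limma (2 had an unadjusted *P* below 0.05) and a summed level between 428700 and 565750 in control and between 433920 and 511990 in *Atp6ap2*iECKO libraries. Markers of other lung cells were present too. Of 20 fibroblast markers 18 were tested and 13 were lower (median log2 fold change -1.50), and their summed level was between 75634 and 114030 in control and between 26013 and 39178 in *Atp6ap2*iECKO libraries, with 0 markers at 0 throughout. Among 20 mural and smooth muscle markers, 12 fell (median -1.41). Their sum was between 18207 and 25768 in control and between 11276 and 11769 in *Atp6ap2*iECKO libraries. Of the tested fibroblast markers 2 had a fold change above 0, and of the mural markers 0 did. Among 20 epithelial markers 0 were lower and 1 was higher past the threshold, and among 20 leukocyte markers 0 passed in limma. The sums of both these lists overlapped between the genotypes. *Xist*, the RNA of the inactive X chromosome, was present in 4 libraries and nearly absent in 2 (control replicate 3 and *Atp6ap2*iECKO replicate 2), although every library is labelled fl/Y. The study describes fl/Y males and fl/fl females for both genotypes, and the sex of the animals behind each library is not given. The number of reads behind a value is unknown, and the step between low values placed the relative depth between 1.00 and 1.04 in control and between 1.25 and 1.55 in *Atp6ap2*iECKO libraries.

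Of the 44 guidance genes, 42 reached 10 normalized counts in at least 3 libraries and were tested. *Robo3* and *Unc5d* fell below that level in 1 library each, and the other tested genes in none. *Slit1* (7.0, 0 and 24.5 in control, 5.5, 1.5 and 14.8 in *Atp6ap2*iECKO) and *Ntn5* (5.0, 2.5 and 4.7 in control, 5.2, 5.8 and 5.2 in *Atp6ap2*iECKO) were too low to test. With limma and adjustment over all 14456 genes tested, 9 of the 42 (21.4%) had an adjusted *P* below 0.05, against 8.25% of all genes. Of the 9, 8 were lower in *Atp6ap2*iECKO iLECs (719 of all genes, 4.97%) and 1 was higher (474 of all genes, 3.28%). The fallen genes were the ligands *Slit2*, *Slit3*, *Sema4g* and *Sema5b* and the receptors *Robo1*, *Robo2*, *Unc5c* and *Plxnb2*, and the gene that rose was the ligand *Sema3d*. Whether or not they passed, 29 of the 42 had a fold change below 0 and 13 above it, with a median log2 fold change of -0.17 against 0.0049 over all genes tested. This split was 25 and 17 after scaling to the same total and 27 and 15 after scaling to the same upper quartile. The groups did not overlap for 15 of them (35.7%, against 29.8% of all genes). Of the 15, 13 were lower in *Atp6ap2*iECKO libraries (2172 of all genes, 15%) and 2 were higher (2131 of all genes, 14.7%).

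The count of 9 rested on single libraries. It was 8 without control replicate 1, 6 without control replicate 2 and 3 without control replicate 3, and 10, 4 and 1 without *Atp6ap2*iECKO replicates 1, 2 and 3. With only the 4 libraries in which *Xist* was present, 2 of each genotype, 0 guidance genes and 0 of all 14094 genes tested passed in limma, while 16 and 2196 had an unadjusted *P* below 0.05. All 9 kept the sign of their fold change in all 18 other analyses tried.

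**Figure D1:**
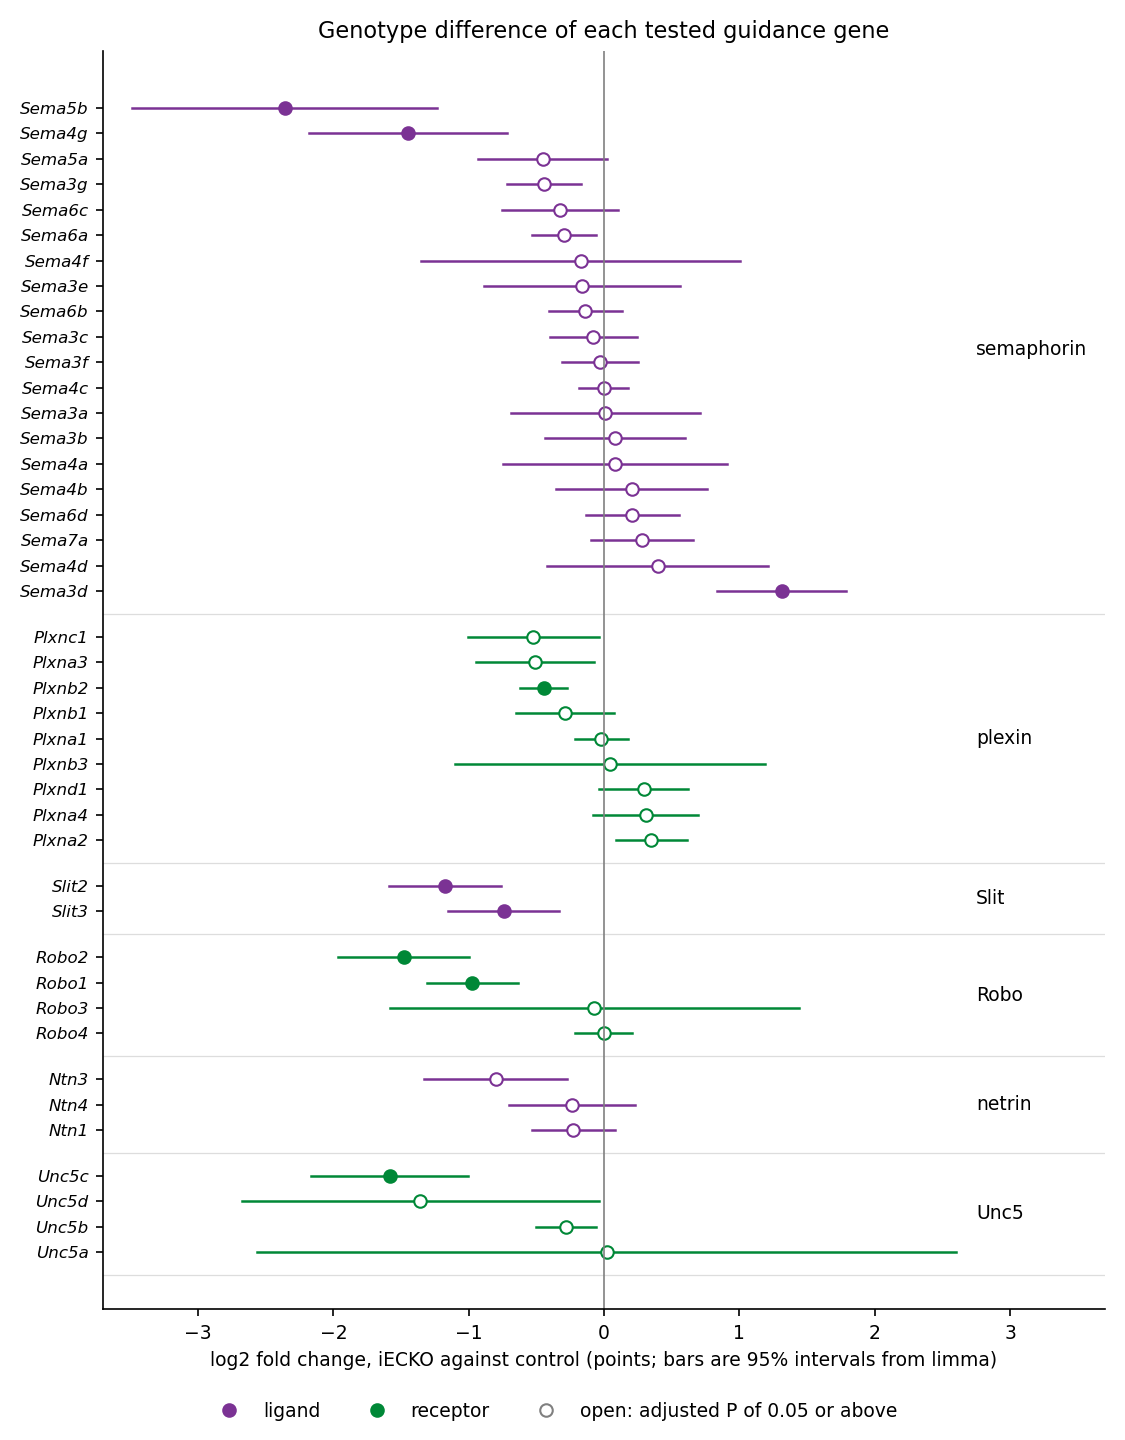
The log2 fold change of each of the 42 tested genes, *Atp6ap2*iECKO against control, by family, with 95% intervals from limma (points are means of 3 against 3 libraries; filled points have an adjusted *P* below 0.05). The 2 tested Slits, *Robo1*, *Robo2* and *Unc5c* lie well to the left of 0, *Sema3d* lies to the right, and *Robo4* sits at 0 with a narrow interval.

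Genes of both roles passed. Of the 25 tested ligands, 4 were lower and 1 was higher (20.0%, median log2 fold change -0.17). Of the 17 receptors, 4 were lower and 0 higher (23.5%, median -0.28). By family, both tested Slits, 2 of 4 Robos, 1 of 4 Unc5 receptors, 1 of 9 plexins and 3 of 20 semaphorins passed, and 0 of the 3 tested netrins did, where 1 had an unadjusted *P* below 0.05 in limma.

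To show what lies before the genes that fell together and beside them the receptor that did not and the ligand that rose, the sequence upstream of 4 start sites is printed, from the RefSeq promoter table of GRCm38.p6. A promoter was found for 36 of the 44 genes and for each of the 9 that passed. Each run reads 5′ to 3′ on the strand of its gene and leaves out bases that an annotated exon covers. Capitals mark TATAAA or GGGCGG on either strand, which cannot overlap each other.

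*Slit2*, chr5:47982905-47983137, plus strand: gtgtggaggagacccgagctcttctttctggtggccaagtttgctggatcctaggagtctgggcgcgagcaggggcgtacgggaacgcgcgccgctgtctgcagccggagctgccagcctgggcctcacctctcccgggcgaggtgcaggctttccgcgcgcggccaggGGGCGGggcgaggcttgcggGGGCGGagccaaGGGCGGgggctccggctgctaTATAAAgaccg
*Robo2*, chr16:74411826-74412075, minus strand: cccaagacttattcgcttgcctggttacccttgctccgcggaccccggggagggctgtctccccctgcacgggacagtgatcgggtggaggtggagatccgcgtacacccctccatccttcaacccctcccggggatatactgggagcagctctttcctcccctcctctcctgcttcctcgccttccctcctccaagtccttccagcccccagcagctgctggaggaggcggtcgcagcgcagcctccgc
*Robo4*, chr9:37401722-37401896, plus strand: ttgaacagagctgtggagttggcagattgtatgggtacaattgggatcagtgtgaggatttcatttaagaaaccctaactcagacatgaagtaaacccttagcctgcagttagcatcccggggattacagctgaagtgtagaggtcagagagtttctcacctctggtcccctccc
*Sema3d*, chr5:12382916-12383165, plus strand: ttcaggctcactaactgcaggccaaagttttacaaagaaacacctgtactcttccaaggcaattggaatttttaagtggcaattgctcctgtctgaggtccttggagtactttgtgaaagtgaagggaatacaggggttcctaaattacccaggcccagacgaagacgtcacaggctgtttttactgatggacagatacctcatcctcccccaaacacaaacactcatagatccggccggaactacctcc

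The *Slit2* window, 233 bases, held 1 TATAAA and 3 GGGCGG, whereas the other 3 windows held neither. Over all 32851 promoter windows of 250 bases, 12.4% held TATAAA and 32.7% held GGGCGG. CG dinucleotides numbered 23 before *Slit2*, 14 before *Robo2* (250 bases), 4 before *Sema3d* (250 bases) and 1 before *Robo4* (175 bases). The *Robo2* window printed is the one nearest the outer end of its gene model, and its other windows of 250 bases held 4 and 8. In full windows the median was 16.5 for the promoters of the genes that passed, 13 for those of all guidance genes and 6 for all promoters. A match describes these letters only.

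Among the ligands, *Slit2*, *Slit3*, *Sema4g* and *Sema5b* fell. *Slit2* (chr5:47983138-48307733), the secreted ligand with the highest level of its family, had 5214, 8785 and 5950.5 normalized counts in control and 2659, 3136 and 2832 in *Atp6ap2*iECKO iLECs. Every control library lay above every *Atp6ap2*iECKO library, and the controls spread more widely, with replicate 2 far above the others. The means were 6650 ± 1885 and 2876 ± 242 (SD, n = 3), 2.31-fold lower in *Atp6ap2*iECKO (log2 fold change -1.18, SE 0.18, limma adjusted *P* = 0.0125). Without *Atp6ap2*iECKO replicate 3 the adjusted *P* in limma was 0.0524.

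*Slit3* (chr11:35121224-35708507), its secreted paralog, had 1402, 1965 and 1514 normalized counts in control and 1212, 903 and 814 in *Atp6ap2*iECKO iLECs. The groups did not overlap, but *Atp6ap2*iECKO replicate 1 came close to the lowest control. The means were 1627 ± 298 and 976 ± 209 (SD, n = 3), 1.67-fold lower (log2 fold change -0.74, SE 0.18, limma adjusted *P* = 0.0431). This call was the weakest of the 9. It held without *Atp6ap2*iECKO replicate 1, while limma's adjusted *P* was 0.0525, 0.103 and 0.105 without control replicates 1, 2 and 3 and 0.133 and 0.143 without *Atp6ap2*iECKO replicates 2 and 3. Per kilobase of the longest mRNA, the summed Slit level was 981 ± 245 in control and 477 ± 30.2 in *Atp6ap2*iECKO iLECs (SD, n = 3), without overlap, and *Slit2* made up 67.7% and 60.7% of it.

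**Figure D2:**
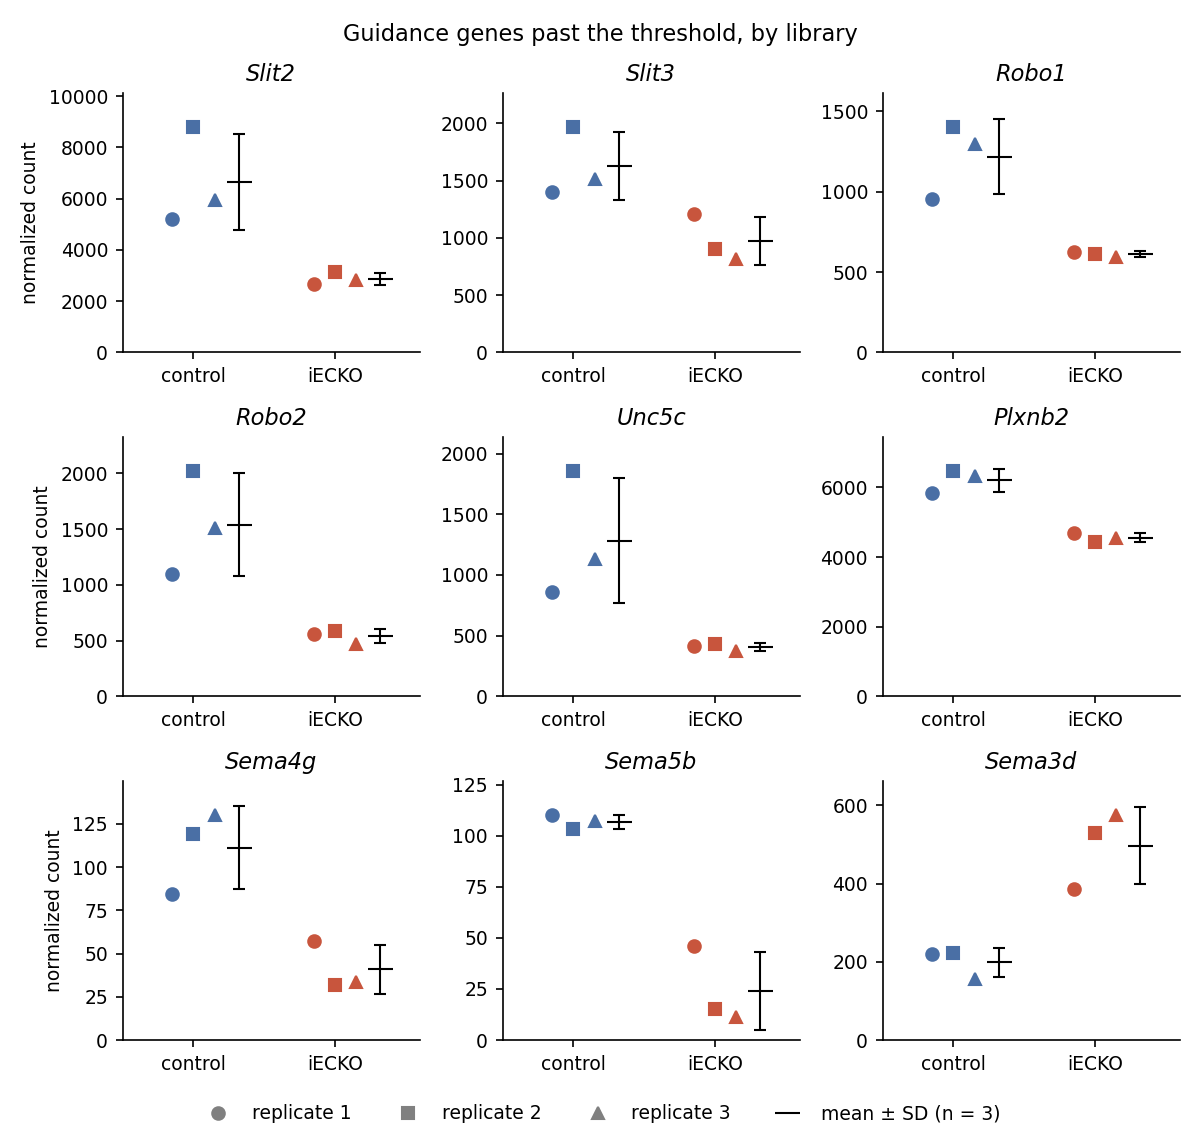
Normalized counts per library (vertical axes, each starting at 0) of the 9 guidance genes with an adjusted *P* below 0.05, for 3 control and 3 *Atp6ap2*iECKO (iECKO) libraries, with mean ± SD. For *Slit2*, *Robo2* and *Unc5c* control replicate 2 is the highest library and the *Atp6ap2*iECKO libraries sit close together, while *Sema3d* is higher in all 3 *Atp6ap2*iECKO libraries.

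Most semaphorins did not pass the test. Of 20, 12 were lower and 8 higher, with a median log2 fold change of -0.05. Class 3, the secreted class, had 1 of 7 higher, class 4 had 1 of 6 lower, class 5 had 1 of 2 lower, and the 4 of class 6 and the 1 of class 7 gave no call, where 1 and 0 had an unadjusted *P* below 0.05 in limma.

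*Sema3d* (chr5:12383385-12588948), a secreted semaphorin known for its part in forming the pulmonary veins, was the only guidance gene that rose. It had 219, 222 and 157 normalized counts in control and 387, 529 and 576 in *Atp6ap2*iECKO iLECs. All *Atp6ap2*iECKO libraries were above all controls, with replicate 1 the lowest of them. The means were 199 ± 36.8 and 497 ± 98.2 (SD, n = 3), 2.50-fold higher (log2 fold change 1.31, SE 0.21, limma adjusted *P* = 0.0138). Without *Atp6ap2*iECKO replicate 2 or 3 the adjusted *P* in limma was 0.0562 or 0.0605. Even after this rise its level per kilobase, 78.9 ± 15.6, was small beside that of *Sema3c*.

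*Sema4g* (chr19:44989101-45003397) encodes a membrane semaphorin that binds plexin B2. Its normalized counts were 84.3, 119 and 130.2 in control and 57.1, 31.9 and 33.6 in *Atp6ap2*iECKO iLECs, so the groups were separate at a low level. The means were 111 ± 23.9 and 40.9 ± 14.1 (SD, n = 3), 2.72-fold lower (log2 fold change -1.45, SE 0.32, limma adjusted *P* = 0.0335). It passed without control replicate 1 or *Atp6ap2*iECKO replicate 1, and limma's adjusted *P* was 0.0896 and 0.111 without control replicates 2 and 3 and 0.111 and 0.118 without *Atp6ap2*iECKO replicates 2 and 3.

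*Sema5b* (chr16:35541145-35664732), a membrane semaphorin with thrombospondin repeats, had 110.2, 103 and 107 normalized counts in control and 45.9, 15.3 and 11.1 in *Atp6ap2*iECKO iLECs. The controls were nearly equal, and *Atp6ap2*iECKO replicate 1 stood between them and the other two. The means were 107 ± 3.45 and 24.1 ± 19.0 (SD, n = 3), 4.43-fold lower (log2 fold change -2.36, SE 0.49, limma adjusted *P* = 0.0287). Only without *Atp6ap2*iECKO replicate 1 did it still pass, and leaving out control replicate 1, 2 or 3 or *Atp6ap2*iECKO replicate 2 or 3 gave limma adjusted *P* values of 0.0659, 0.0677, 0.0953, 0.0953 and 0.0876.

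Per kilobase of the longest mRNA, the most abundant semaphorins were secreted class 3 members, and they showed smaller differences. *Sema3c*, which signals through neuropilins with plexin D1, had the highest level per kilobase of all 44 genes, and its normalized counts were 26065, 19669 and 19537 in control and 22043, 18227 and 21119 in *Atp6ap2*iECKO iLECs. The groups overlapped, and the log2 fold change was -0.08 (95% interval -0.40 to 0.24, limma adjusted *P* = 0.782). *Sema3g*, a class 3 semaphorin of arterial endothelium, had 11462, 12605 and 11018 in control and 9769, 8812 and 7349 in *Atp6ap2*iECKO iLECs. Its groups did not overlap, yet it missed the threshold (log2 fold change -0.44, SE 0.12, limma adjusted *P* = 0.0589). Beside it, 5 of 7 arterial markers fell (*Dll4*, *Efnb2*, *Gja4*, *Gja5* and *Hey1*), and their list summed to between 66328 and 70486 in control and between 41334 and 50873 in *Atp6ap2*iECKO libraries. The part of arterial cells in the *Sema3g* values was not tested.

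Other semaphorins at high levels did not pass. The log2 fold change was -0.03 for *Sema3f* (95% interval -0.31 to 0.25), -0.0016 for *Sema4c* (-0.18 to 0.18) and 0.21 for *Sema6d* (-0.13 to 0.56). *Sema7a*, whose product is tethered by a lipid anchor and binds plexin C1, had 0.28 (-0.10 to 0.65). *Sema6a*, a membrane semaphorin, had 11240, 9819 and 8896 normalized counts in control and 7915, 8585 and 7857 in *Atp6ap2*iECKO iLECs. Its groups did not overlap (log2 fold change -0.29, 95% interval -0.53 to -0.06, limma adjusted *P* = 0.128). *Sema3a* and *Sema3e* stood out only for control replicate 3, with 1362 and 1358 normalized counts against 553 to 636 and 553 to 603 in the other controls. Markers of epithelial cells also summed highest in that library, to 91971 against 39830 and 35954 in the other controls. In *Atp6ap2*iECKO libraries this sum was 44643 to 52663. Mesothelial markers summed highest there too (915 against 295 and 546 in the other controls, and 366 to 427 in *Atp6ap2*iECKO libraries). That library was also nearly without *Xist*. The part of any of these in the *Sema3a* and *Sema3e* values was not tested.

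The tested netrins were lower without passing the test. *Ntn1*, the netrin with the highest level, had 5341, 4281 and 4136 normalized counts in control and 4525, 3772 and 3468 in *Atp6ap2*iECKO iLECs. The groups overlapped (log2 fold change -0.23, 95% interval -0.53 to 0.08, limma adjusted *P* = 0.355). *Ntn3* had 126, 137 and 109 in control and 77.3, 79.6 and 57.1 in *Atp6ap2*iECKO iLECs, without overlap, and a log2 fold change of -0.80 (SE 0.23, limma adjusted *P* = 0.0741). *Ntn4*, a netrin of basement membranes, had -0.24 (-0.71 to 0.23).

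The Slit receptors *Robo1* and *Robo2* fell while the endothelial *Robo4* stayed level. *Robo1* (chr16:72308306-73046095) had 956, 1400 and 1296 normalized counts in control and 626, 615 and 595 in *Atp6ap2*iECKO iLECs. The *Atp6ap2*iECKO libraries lay within a narrow band beneath all controls. The means were 1217 ± 232 and 612 ± 16.0 (SD, n = 3), 1.99-fold lower (log2 fold change -0.97, SE 0.15, limma adjusted *P* = 0.0119). Without control replicate 3 or *Atp6ap2*iECKO replicate 3 limma's adjusted *P* was 0.0509 or 0.0524.

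*Robo2* (chr16:73891839-74411825), on the opposite strand of the same chromosome, had 1096, 2022 and 1507 normalized counts in control and 559, 586 and 467 in *Atp6ap2*iECKO iLECs. The lowest control was well above the highest *Atp6ap2*iECKO library. The means were 1541 ± 464 and 537 ± 62.6 (SD, n = 3), 2.87-fold lower (log2 fold change -1.48, SE 0.21, limma adjusted *P* = 0.0107). It passed without each library in turn.

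*Robo4* (chr9:37401897-37415115), a Robo of endothelial cells that binds Unc5b, had 8102, 8742 and 7749 normalized counts in control and 7601, 8936 and 8066 in *Atp6ap2*iECKO iLECs. The groups overlapped fully around means of 8198 ± 503 and 8201 ± 678 (SD, n = 3). The log2 fold change was -0.0009 with a 95% interval from -0.21 to 0.21 (limma adjusted *P* = 0.996). Per kilobase, *Robo4* made up 82.8% ± 3.06 of the summed Robo level in control and 91.7% ± 0.538 in *Atp6ap2*iECKO iLECs, whereas *Robo2* made up 8.87% ± 2.02 and 3.47% ± 0.398 and *Robo1* 8.02% ± 1.2 and 4.50% ± 0.387 (SD, n = 3). The sum itself was 2001 ± 167 and 1805 ± 141 and overlapped. *Robo3* was near the detection limit, with means of 26.4 in both.

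Among the Unc5 receptors, *Unc5c* fell and the endothelial *Unc5b* did not pass. *Unc5c* (chr3:141465216-141834924), a netrin receptor, had 862, 1857 and 1131 normalized counts in control and 418, 432 and 369.9 in *Atp6ap2*iECKO iLECs. The groups were apart, and control replicate 2 stood above the other controls. The means were 1283 ± 515 and 407 ± 32.6 (SD, n = 3), 3.16-fold lower (log2 fold change -1.58, SE 0.25, limma adjusted *P* = 0.0138). Without control replicate 3 or *Atp6ap2*iECKO replicate 3 the adjusted *P* from limma was 0.0509 or 0.0584. An antisense gene, Gm15688, covers 0.617% of its exons, the only exon overlap among the 9 genes, and whether the counting used strand is not given in the sources used here.

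*Unc5b*, the Unc5 receptor of endothelial cells, had 8273, 8572 and 7549 normalized counts in control and 6920.3, 7190.3 and 6014 in *Atp6ap2*iECKO iLECs. The groups did not overlap, but the log2 fold change of -0.28 missed the threshold (95% interval -0.50 to -0.06, limma adjusted *P* = 0.123). The summed Unc5 level per kilobase was 1543 ± 108 in control and 1211 ± 131 in *Atp6ap2*iECKO iLECs (SD, n = 3), without overlap. *Unc5d* was low in all libraries (log2 fold change -1.36, SE 0.57, limma adjusted *P* = 0.195).

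Of the plexins, *Plxnb2* alone passed, by a smaller change than the other guidance genes that passed. *Plxnb2* (chr15:89155549-89180788), a receptor for class 4 semaphorins, had 5836, 6471 and 6316 normalized counts in control and 4690.1, 4428 and 4539 in *Atp6ap2*iECKO iLECs. Both groups were tight and did not overlap. The means were 6208 ± 331 and 4552 ± 132 (SD, n = 3), 1.36-fold lower (log2 fold change -0.45, SE 0.08, limma adjusted *P* = 0.0163). Without control replicate 3 the adjusted *P* in limma was 0.0581, and without *Atp6ap2*iECKO replicates 2 and 3 it was 0.0796 and 0.074.

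*Plxnd1*, the plexin of endothelial cells and receptor of Sema3e, was the most abundant receptor, with 23686, 21221 and 20092 normalized counts in control and 21799, 30766 and 27652 in *Atp6ap2*iECKO iLECs. *Atp6ap2*iECKO replicates 2 and 3 were above all controls and replicate 1 was not. The log2 fold change was 0.29 (95% interval -0.03 to 0.62, limma adjusted *P* = 0.261). *Plxna2* (0.35, limma adjusted *P* = 0.106) and *Plxna3* (-0.51, limma adjusted *P* = 0.146) had separate groups in opposite directions. *Plxna1* was level (-0.02, 95% interval -0.22 to 0.17). The summed plexin level per kilobase was 5901 ± 307 in control and 6349 ± 624 in *Atp6ap2*iECKO iLECs (SD, n = 3), and overlapped.

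For each of the 9 genes the exact two-sided permutation test over libraries gave *P* = 0.1, the smallest value that 3 against 3 libraries allow. With only the libraries in which *Xist* was present, the log2 fold change was -1.30 for *Slit2*, -0.74 for *Slit3*, -0.92 for *Robo1*, -1.54 for *Robo2*, -1.68 for *Unc5c* and -0.41 for *Plxnb2*. It was -1.17 for *Sema4g*, -2.18 for *Sema5b* and 1.09 for *Sema3d*. None of these passed in limma with 2 libraries of each genotype, the adjusted *P* values lying between 0.123 and 0.267.

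**Figure D3:**
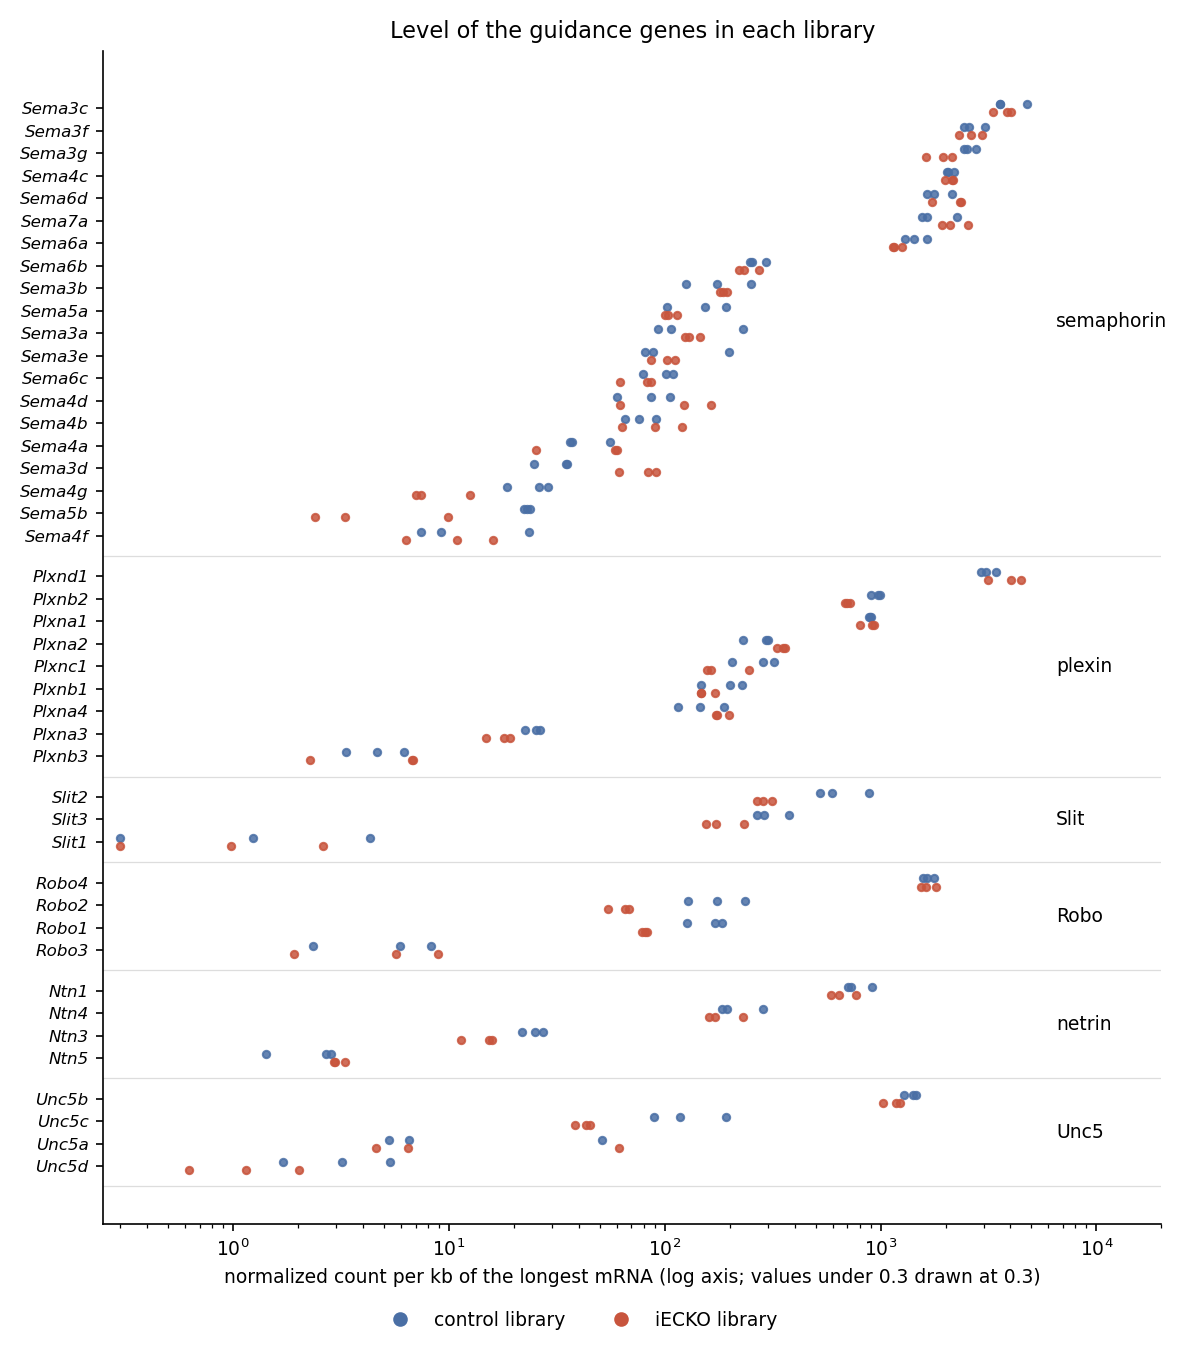
Normalized count per kb of the longest annotated mRNA (log axis) for the 44 guidance genes in each of the 3 control and 3 *Atp6ap2*iECKO libraries, by family in order of control level. In control, *Sema3c* leads the ligands at 3962 and *Plxnd1* the receptors at 3137, and the genes that fell lie in the middle and lower range.

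Per kilobase, the genes that passed were not those at the top. The control means were led by *Sema3c* (3962), *Plxnd1* (3137), *Sema3f* (2684), *Sema3g* (2576) and *Sema4c* (2094), followed by *Sema6d*, *Sema7a*, *Robo4*, *Sema6a* and *Unc5b*, which lay between 1847 and 1385. The fallen genes stood below them, at 956 per kb for *Plxnb2*, 668 for *Slit2*, 311 for *Slit3*, 179 for *Robo2*, 161 for *Robo1* and 133 for *Unc5c*. *Sema3d*, *Sema4g* and *Sema5b* were at 31.6, 24.4 and 23.0. Of the 43 pairs of neighbours in this order, 37 overlapped between control libraries, so most single steps in it are within the spread. The order rests on the mRNA length taken. That of *Slit2* was 9.96 kb, against 25.4 kb for all its annotated exons together, which would move it from place 14 to 15. Other genes would move further on that length, *Sema3f* from 3 to 6, *Sema6d* from 6 to 10 and *Sema7a* from 7 to 4.

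The fallen genes were compared with the non-endothelial markers library by library. In percent of the control mean, fibroblast markers summed to 78.8, 119 and 102 in control and 40.8, 30.3 and 27.1 in *Atp6ap2*iECKO libraries, and mural markers to 80.2, 114 and 106 and to 51.9, 50.8 and 49.7. *Robo1* ran 78.6, 115 and 106 in control and 51.5, 50.5 and 48.9 in *Atp6ap2*iECKO, and *Robo2* ran 71.1, 131 and 97.7 and then 36.3, 38.0 and 30.3. Control replicate 1 was thus lowest and replicate 2 highest among controls for *Robo1* and *Robo2* as for both marker sums. *Slit2* (78.4, 132 and 89.5 in control), *Unc5c* (67.2, 145 and 88.1), *Slit3* (86.2, 121 and 93.1) and *Plxnb2* (94.0, 104 and 102) had the same order among controls. In *Atp6ap2*iECKO libraries *Robo1*, *Slit3* and *Sema5b* were highest in replicate 1 and lowest in replicate 3, in the same order as both marker sums. That order was not particular to these markers. The endothelial sum (104, 99.4 and 88.5), the arterial sum (74.3, 67.6 and 60.4) and *Atp6ap2* (66.7, 36.9 and 31.3) had it too. The order differed for *Robo2*, *Unc5c*, *Plxnb2*, *Sema4g* and *Slit2*. Of these, *Slit2* (40.0, 47.2 and 42.6) was lowest in replicate 1, where the fibroblast sum was highest. *Sema4g* (75.8, 107 and 117) and *Sema5b* (103, 96.7 and 100) had other orders among controls. Among the 8 fallen genes, control replicate 2 was the highest control for 6 and *Atp6ap2*iECKO replicate 3 the lowest *Atp6ap2*iECKO library for 5.

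The 3 receptors of endothelial cells did not pass the test, and they were not tested against one another. The endothelial markers summed to 115, 97.1 and 87.5 percent of the control mean in control and 104, 99.4 and 88.5 in *Atp6ap2*iECKO libraries. *Robo4*, like this sum, overlapped between the genotypes, but its libraries ran in another order (98.8, 107 and 94.5, then 92.7, 109 and 98.4). *Unc5b* was below every control in all *Atp6ap2*iECKO libraries (102, 105 and 92.8, then 85.1, 88.4 and 74.0). *Plxnd1* ran 109, 97.9 and 92.7, then 101, 142 and 128. In bulk RNA, fewer cells of a type and less RNA per cell cannot be told apart. The part of fibroblasts and mural cells in the values of the fallen genes was not tested.

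**Figure D4:**
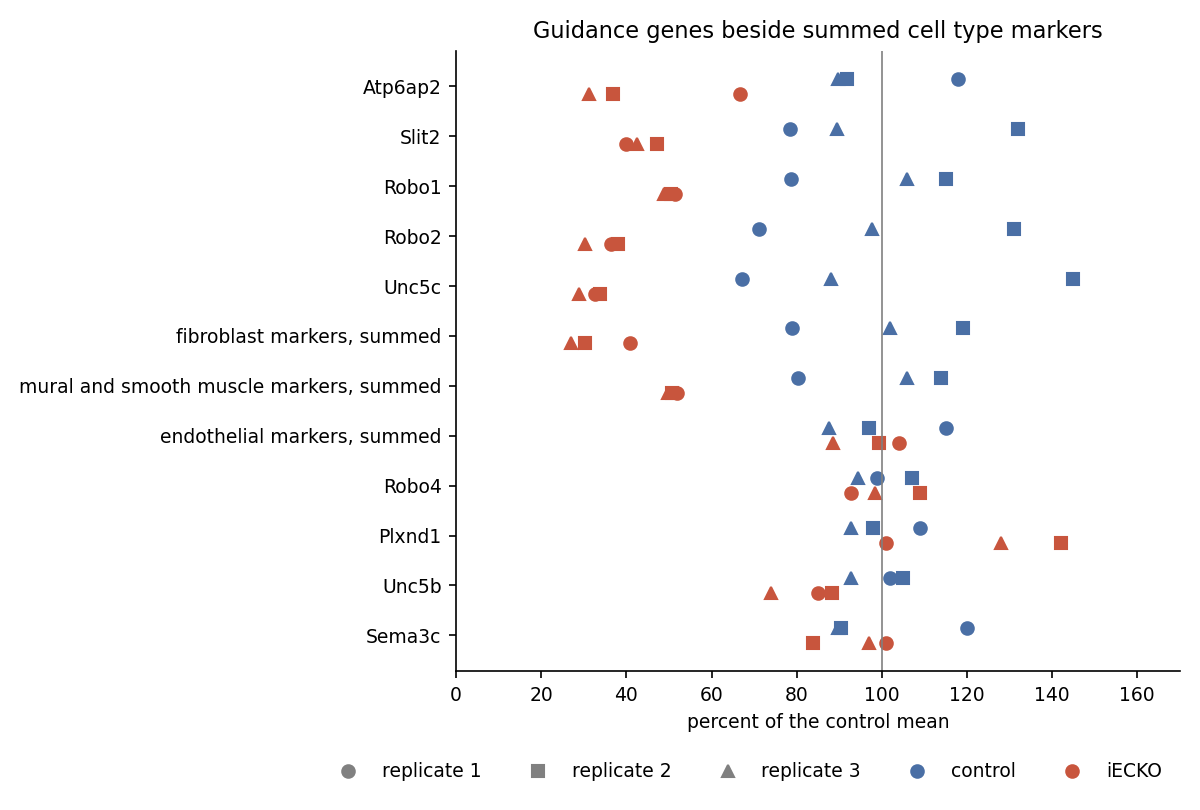
Level in each library as a percent of the control mean (horizontal axis) for *Atp6ap2*, for 8 guidance genes and for the summed markers of 3 cell types, with symbols for replicates 1 to 3 and colours for genotype. *Slit2*, *Robo1*, *Robo2* and *Unc5c* lie beside the fibroblast and mural marker sums, between 28.8 and 51.5 in *Atp6ap2*iECKO libraries, whereas *Robo4* and the endothelial sum stay near 100. Not every fallen gene was beside the fibroblast and mural sums in *Atp6ap2*iECKO libraries. *Plxnb2* was above both (75.6, 71.3 and 73.1), as was *Slit3* in replicates 1 and 2 (74.5 and 55.5). *Sema5b* was below both in replicates 2 and 3 (14.4 and 10.4), and *Sema4g* was beside them (51.4, 28.7 and 30.2).

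Partners of the same pathways were taken from lists of co-receptors, other ligands, effectors inside the cell and proteases, 66 genes of which 57 were tested. Of these 5 passed (8.77%, against 8.25% of all genes), 4 lower and 1 higher. Among 13 tested co-receptors and other receptors 3 were lower. Among 38 effectors 1 was lower and 1 higher, and of the 3 other ligands and 3 proteases 0 passed in limma, where 1 and 0 had an unadjusted *P* below 0.05.

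The neuropilins, which class 3 semaphorins bind, did not pass. *Nrp1* had 27299, 24208 and 21638 normalized counts in control and 25540, 24229 and 23154 in *Atp6ap2*iECKO iLECs, and overlapped (log2 fold change 0.00, 95% interval -0.26 to 0.26, limma adjusted *P* = 0.997). *Nrp2* had 4392, 4583 and 3940 in control and 4417, 5819 and 5731 in *Atp6ap2*iECKO iLECs, where only replicate 1 lay among the controls (log2 fold change 0.30, limma adjusted *P* = 0.185).

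Of the netrin receptors outside the Unc5 family, *Dcc* was listed at 0 in all 6 libraries. *Neo1*, which encodes neogenin, a receptor of netrins and of repulsive guidance molecules, had 2829, 3896 and 3484 normalized counts in control and 1827, 1439 and 1249 in *Atp6ap2*iECKO iLECs. The groups did not overlap, and the means were 3403 ± 538 and 1505 ± 294 (SD, n = 3; log2 fold change -1.18, SE 0.16, limma adjusted *P* = 0.0104). The integrin subunit *Itga1* (log2 fold change -1.09, limma adjusted *P* = 0.00857) and *Gpc1*, a heparan sulfate proteoglycan (-1.34, limma adjusted *P* = 0.0301), also fell. Of the effectors, *Enah*, an actin regulator, fell (-0.49, limma adjusted *P* = 0.0460) and *Dpysl3*, a collapsin response mediator, rose (0.77, limma adjusted *P* = 0.0103). *Gpc1* passed without control replicate 1, and without any other single library its limma adjusted *P* was between 0.0656 and 0.104. *Enah* failed the threshold in each of the 6 analyses without 1 library (limma adjusted *P* between 0.0503 and 0.135), and the number of partners that passed was 3 without control replicate 2 or 3 or *Atp6ap2*iECKO replicate 2 or 3.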

How the data were processed

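The authors isolated CD31-positive lung cells with magnetic beads, made mRNA libraries with a TruSeq kit, aligned reads to mm10 (BaseSpace RNA-Seq alignment, 2.0.1) and quantified each gene in BaseSpace RNA-Seq Differential Expression, 1.0.1. The authors deposited 1 table of 24972 symbols in 6 libraries, a normalized signal (estimated counts scaled between libraries, not whole, although labelled raw). Totals were between 26243878 and 28725799. Only 45.6% to 71.1% of values below 15 were whole multiples (within 0.02) of each library's step, so reads were not recovered and errors are the SD or SE over 3 libraries.

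Values were tested as log2(normalized count + 1), for genes of at least 10 in 3 or more libraries, with limma 3.58.1 in R 4.3.3 (mean-variance trend, no covariate), Benjamini-Hochberg over all 14456 genes tested and a threshold of 0.05. The added 1 shrinks the log2 fold changes of low genes. Folds in the text are ratios of means, whereas log2 fold changes are differences of mean logs. The measures can therefore differ, as for *Sema5b* (log2 fold change -2.36, 4.43-fold lower). Because the values are not counts, no count model was run. Coordinates and mRNA lengths are from GENCODE M21 (GRCm38), where all 44 symbols matched. Genes described in full were those with an adjusted *P* below 0.05 and the highest of each family, and partners past the threshold with *Nrp1*, *Nrp2*, *Dcc* and *Neo1*. *Sema3g*, *Sema6a*, *Ntn3*, *Sema3a* and *Sema3e* and the genes given by interval were added after their values were seen. The members and lists were chosen with earlier results of these data known. Alternatives were other pseudocounts, filters, scalings, variance models and thresholds, a replicate block, *Xist* as a covariate or a limit, and each library left out. Figures were drawn with matplotlib 3.10.9.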

Additional observations from a re-analysis of the deposited data

How the results depend on the processing

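The 9 guidance genes that passed stayed 9 with pseudocounts of 0.5 or 10, no filter, a mean of at least 50, upper-quartile scaling or robust variances. Scaling to the same total gave 10 (*Plxna2* added), sample weights 10 (*Sema3g* added), *Xist* as a covariate 7 (*Sema4g* and *Slit3* lost), no mean-variance trend 3, an adjusted *P* below 0.1 gave 11, one below 0.01 gave 0, and only libraries with *Xist* gave 0, where 2 against 2 libraries were left. Leaving out 1 library gave 1 to 10. Over all genes the count of 1193 became 767 with the *Xist* covariate, 0 with only *Xist* libraries, 304 without the trend, 1987 below 0.1, 90 below 0.01 and 206 to 983 without 1 library. The split of 474 higher and 719 lower was 573 and 599 with total scaling and 595 and 687 with upper-quartile scaling. The 5 partners became 0 with only *Xist* libraries, 3 without the trend, 8 below 0.1, 1 below 0.01 and 3 to 6 without 1 library. *Atp6ap2* kept its direction, at -1.19 with only *Xist* libraries (limma adjusted *P* = 0.217), -1.22 without the trend (limma adjusted *P* = 0.0917) and -1.54 to -0.999 without 1 library. The causes were not tested, except that fits without libraries hold fewer samples. Of the 42 tested guidance genes, 14 changed the sign of their fold change in at least 1 analysis, 0 of them among the 9 that passed and the largest reported log2 fold change among the 14 was 0.20 in size.

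The replicate numbers in the labels were also used as a replicate block. The deviations of same-numbered libraries correlated by 0.252, 0.114 and 0.0782, and those of differently numbered libraries by between -0.208 and 0.1. The same-numbered values were not above 0.1 in every pair, and no label ties the numbers to a litter, day or batch. Same-numbered libraries were therefore not taken as pairs. With the block 11 guidance genes (*Plxnc1* and *Sema3g* added), 8 partners and 1508 of all genes passed.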

Other observations

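*Unc5a*, a netrin receptor low in most libraries, had 26.1, 21.1 and 203 normalized counts in control and 18.3, 246 and 25.7 in *Atp6ap2*iECKO iLECs. Its high values were in the 2 libraries that nearly lacked *Xist*, 1 of each genotype. The log2 fold change between genotypes was 0.02 with a 95% interval from -2.56 to 2.60 (limma adjusted *P* = 0.993), which allows a change of several fold either way.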
